A study of Mus musculus with 192 samples.

Results

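Cadherins, protocadherins, their catenin partners, contactins and neuroligins are proteins of the cell surface, or of its inner face, that hold cells and synapses together. They were described here by where their RNA lay in the adult mouse brain. The genes were chosen by name, from rows of the expression table whose single annotated symbol begins as those of the cadherins (Cdh), protocadherins (Pcdh), catenins (Ctnn), contactins (Cntn, Cntnap), Ncam, neuroligins (Nlgn), neurexins (Nrxn), Cadm or L1cam do. This gave 35 rows, called probes below, for 20 genes. A probe was kept where every dataset had a value on 80% or more of its arrays, which left 34 probes for 19 genes out of 15608 genes or unnamed probes tested. Cdh3 was the gene left out, with 78.5% of the arrays of dataset 3. None of the 35 rows belonged to the Cntnap, Ncam, neurexin, Cadm or L1cam groups, so these were not analysed here. The 19 genes are 7 cadherins, 4 protocadherins, 5 catenins, 2 contactins and 1 neuroligin.

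Classical cadherins such as N-cadherin (Cdh2) bind the same cadherin on a neighbouring cell through calcium-dependent repeats, and their inner tails hold the catenins. β-Catenin (Ctnnb1) binds that tail and α-catenin (Ctnna1), which meets the actin skeleton, while p120-catenin (Ctnnd1) keeps cadherins at the surface. β-Catenin is also the transcriptional effector of Wnt signalling. Protocadherins have cadherin repeats but other tails, and in the brain individual cadherins and protocadherins are known for marking particular nuclei, layers and fibre tracts. Contactins are immunoglobulin-domain proteins of axons, and neuroligins are postsynaptic partners of neurexins.

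The samples were cubes of brain tissue, voxels, from C57BL/6 male mice of postnatal day 56, named by grid row (A to G) and column (1 to 11). Each of 192 arrays set pooled voxel RNA of 1 of 68 positions against RNA of whole brain from the same strain, sex and age, in 3 independently harvested datasets of 59, 68 and 65 arrays. Voxel RNA carried Cy3 in datasets 1 and 3 and Cy5 in dataset 2, so dye and dataset cannot be told apart. The animals behind each pool are not named, and no mutation or treatment separated the groups. Of the positions, 56 had 3 arrays and 12 had 2. Position means are plain averages over the arrays present and are not adjusted for dataset. Where an array is missing, the mean also depends on which dataset it belongs to.

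Values are log2 ratios, centred by the authors on each probe's median, so they compare positions with each other and give no level of a gene against whole brain or against another gene. A higher value likely means more RNA in the voxel, but the direction is not stated. Arrays of 1 dataset correlated at a median of 0.178 and at the lowest -0.59, and 0.923% of pairs lay below -0.3. In bulk tissue, more cells of a type and more RNA per cell cannot be told apart. In dataset 2 the arrays of D1 to D3 and D5 to D7 were more like the other datasets when their order was turned around, with a mean correlation of 0.57 against -0.22 as labelled, over 300 genes chosen in datasets 1 and 3. Labels were kept, and the F tests, zone differences and values of row D that use these 6 arrays are also given without them. In dataset 3 the arrays of G8, G3 and G6 had 41.5%, 20.3% and 15.1% of values missing or at the table's floor (a ratio of 0.01, treated as missing), the most of any. The labels give no anatomy, so marker genes give the orientation. The mean of the 4 measured cerebral cortex markers was 0.54 in rows F-G and -0.51 in rows A-B, and the 3 hypothalamus markers had their highest mean at A5 (1.05). The 4 striatal markers were highest at D9 (2.05), and the 5 thalamic ones at C6 (1.24).

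Of the 19 adhesion genes, 2 differed among positions at an adjusted p under 0.05, the catenin Ctnnb1 and the protocadherin Pcdh17, where 4.92% of all genes did (768 of 15608). The test was a moderated F (limma) on the positions, blocked by dataset, with Benjamini-Hochberg adjustment over all genes. At an unadjusted p under 0.05 the count was 6 of 19, beside 13.3% of all genes. The median F was 1.27 over the adhesion genes and 1.04 over all genes, and the median range of position means was 1.83 and 1.58. Most of the family therefore showed no difference among positions that passed the test. Both calls needed all 3 datasets. Without the 6 row D arrays of dataset 2 the same 2 genes passed, beside 743 of 15601 genes. Again 6 of 19 had an unadjusted p under 0.05, beside 2014 of the 15601. Without dataset 1, 2 or 3 the adjusted p of Ctnnb1 was 0.406, 0.223 and 0.206, and that of Pcdh17 was 0.91, 0.602 and 0.106.

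The 2 genes that passed are shown with the 250 bases before their most upstream RefSeq start in GRCm38.p6, because they carry the result. Capitals mark, on either strand, the GC box GGGCGG, the box named CCAAT and the TATA box letters TATAAA, and no matches overlapped. The Ctnnb1 window is chr9:120933150-120933399 and that of Pcdh17 is chr14:84443313-84443562, both on the plus strand.
Ctnnb1: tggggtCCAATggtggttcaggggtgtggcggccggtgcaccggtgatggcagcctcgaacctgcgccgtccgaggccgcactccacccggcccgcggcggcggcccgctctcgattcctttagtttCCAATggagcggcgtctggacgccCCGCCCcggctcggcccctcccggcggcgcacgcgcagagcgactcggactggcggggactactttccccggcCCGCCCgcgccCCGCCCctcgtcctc
Pcdh17: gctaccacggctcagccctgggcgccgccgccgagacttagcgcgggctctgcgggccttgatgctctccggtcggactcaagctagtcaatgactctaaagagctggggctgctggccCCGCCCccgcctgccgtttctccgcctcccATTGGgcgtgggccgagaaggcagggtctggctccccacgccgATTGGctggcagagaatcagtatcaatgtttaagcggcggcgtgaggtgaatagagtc
The Ctnnb1 window held 3 matches to GGGCGG and 2 to CCAAT, and the Pcdh17 window 1 and 2. Neither held TATAAA. Among 32851 RefSeq windows of this length, 32.7% held GGGCGG, 33.8% CCAAT and 12.4% TATAAA. GC content was 74.8% for Ctnnb1 and 64.8% for Pcdh17. A match is a description of the letters and no sign of a factor bound there, and the arrays measured nothing at these windows.

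The catenins come first, as the inner partners of cadherins. Ctnnb1 had its highest row mean in row C and its lowest in row G. Over 191 arrays its values ran from -1.97 through a median of 0.00 to 2.61. The highest position mean was at C4, 1.07 ± 1.36 (SD, n = 3), where datasets 1, 2 and 3 gave 2.61, 0.55 and 0.04. That mean rests on 1 high array. The next, C6, had 0.84, 0.32 and 0.95 (mean 0.70 ± 0.34), C8 had 0.62, 0.85 and 0.10 (0.53 ± 0.39), and C5 had 0.80, 0.66 and 0.09 (0.52 ± 0.38). The lowest was G3, with -0.27, -0.75 and -1.97 (-0.99 ± 0.88), in a dataset 3 array short of values. F2 was low in every dataset, with -0.35, -0.73 and -0.42 (-0.50 ± 0.20). No position of rows F-G had a mean above 0 (0 of 17, from -0.99 to -0.01), while 20 of 33 positions of rows C-E and 12 of 18 of rows A-B did, so the rows overlap only in part. The F was 2.10 with an adjusted p of 0.00606 by the moderated F test. Without the dataset 2 arrays of row D the F was 2.82 (adjusted p = 2.9e-05). Without the dataset as a block the adjusted p was 0.525. With floor values kept it was 0.249 by the moderated F test. The single floor value of the probe is at G8 of dataset 3, and its part in that change was not tested.

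**Figure D1:**
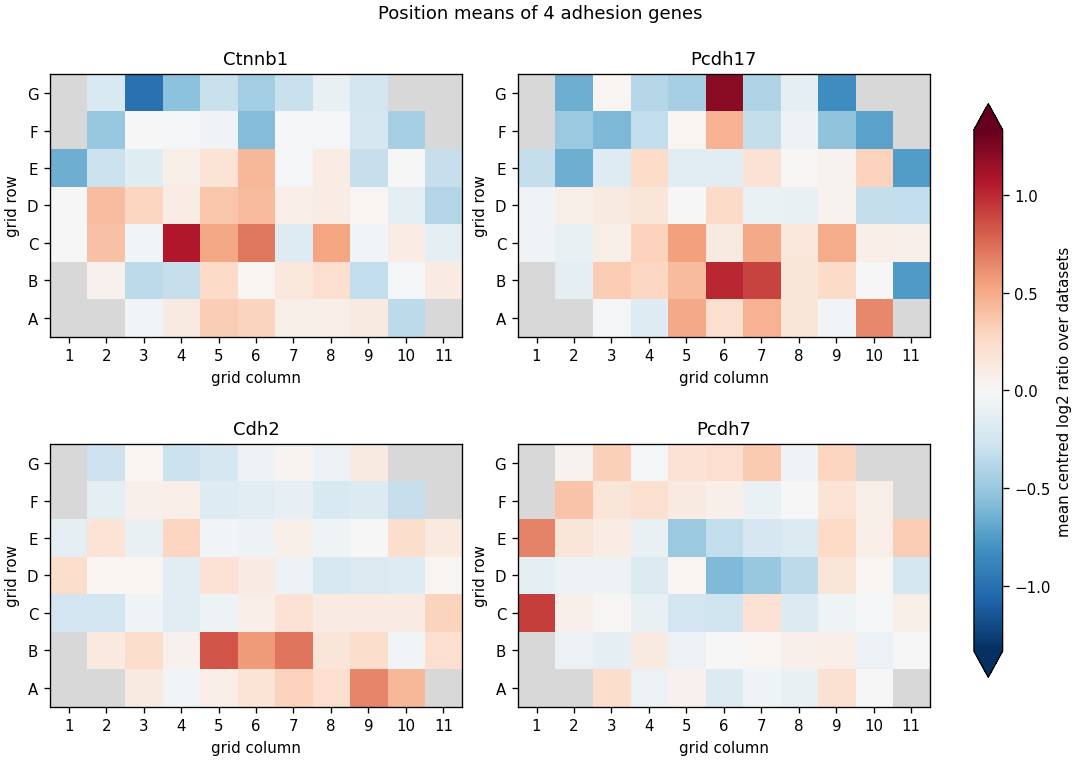
Mean centred log2 ratio over the datasets at each of the 68 grid positions for Ctnnb1, Pcdh17, Cdh2 and Pcdh7, with grid columns along the x axis, grid rows along the y axis, red above 0, blue below 0 and grey where no voxel was measured. Ctnnb1 is blue or pale in all of rows F-G, Pcdh17 is reddest at G6, B6 and B7, Cdh2 at B5 and B7, and Pcdh7 is bluest near D6 and D7.

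Maps of Ctnnb1 in separate datasets followed each other weakly but more than those of most genes. The F test that picked the gene used the same arrays, so this is a description and no separate evidence. Over the positions shared, the correlation was 0.28 for datasets 1 and 2 (59 positions), 0.38 for 1 and 3 (56) and 0.25 for 2 and 3 (65), where the medians over all genes were 0.055, 0.028 and 0.0037. Without those row D positions it was 0.48, 0.30 and 0.40. The non-member genes whose position means were most like those of Ctnnb1, of 8428 compared over 68 positions, were Tspan3 (a tetraspanin, r = 0.70) and the ribosomal protein genes Rpl27 (r = 0.69) and Rps9 (r = 0.67). With the row D arrays left out these were 0.73, 0.68 and 0.66. Of these, Rps9 passed the F test itself (adjusted p = 7.1e-07).

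By grid row, Ctnnb1 averaged 0.14 ± 0.36 in row A, 0.03 ± 0.16 in row B, 0.29 ± 0.35 in row C, 0.12 ± 0.29 in row D, -0.07 ± 0.31 in row E, -0.20 ± 0.20 in row F and -0.48 ± 0.39 in row G (SD over 3 datasets). Over datasets 1 and 3 row D averaged 0.25. Within dataset 1 the means of rows C and G were 0.70 and -0.13, in dataset 2 they were 0.09 and -0.41, and in dataset 3 they were 0.09 and -0.90. Row C was above row G in every dataset. Each pair of adjacent rows differed by less than the larger of their SDs, and the medians over positions of rows A-B and rows C-E were both 0.08.

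**Figure D2:**
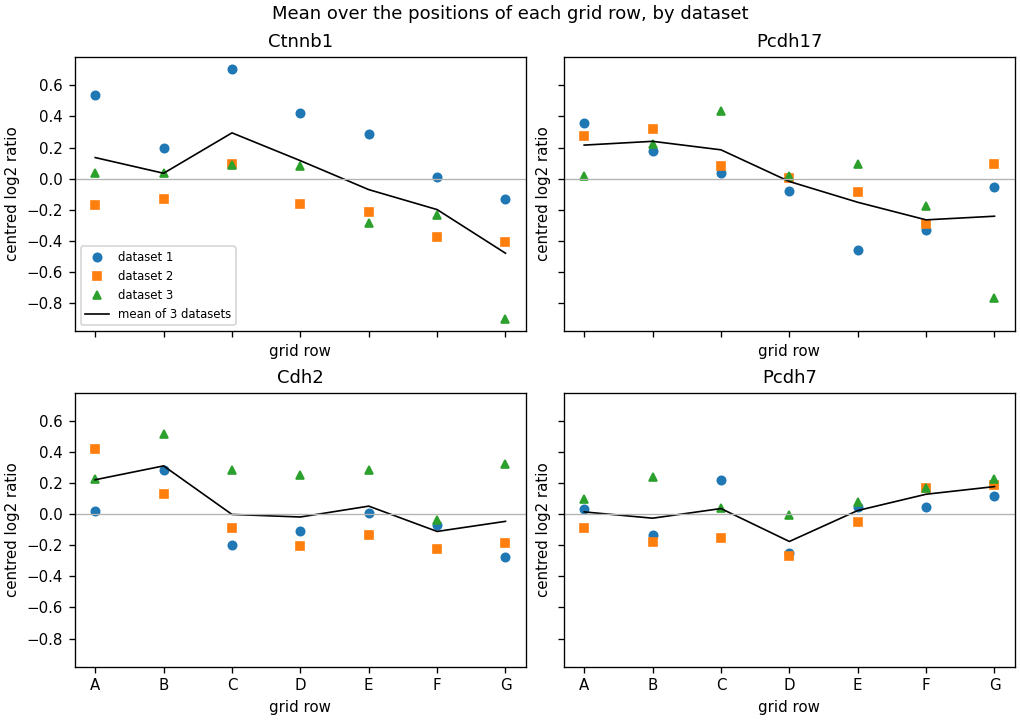
Mean centred log2 ratio over the positions of each grid row (x axis, A to G) for Ctnnb1, Pcdh17, Cdh2 and Pcdh7; symbols are the 3 datasets and the line is their mean. Ctnnb1 goes from 0.29 in row C to -0.48 in row G, Pcdh17 from 0.24 in row B to -0.27 in row F, and Pcdh7 has its lowest mean, -0.18, in row D (-0.13 over datasets 1 and 3).

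The other catenins did not pass. Ctnna1, with 3 probes, had an F of 1.49 (adjusted p = 0.264). Its position means ran from -0.61 at A3 to 0.50 at B7. Ctnnal1, an α-catenin relative, had an F of 0.937, and its highest mean, 1.83 ± 2.67 at G8, lies on the position of the array with the most missing values. The mean of the 4 Ctnnd1 probes had the smallest range of the family, from -0.35 at D6 (-0.59 over datasets 1 and 3) to 0.37 at F10 (F = 0.809). Singly, its probes 1 to 4 ran from -1.32 to 1.66, -0.84 to 0.61, -0.37 to 0.58 and -1.00 to 0.68. The small range is thus that of an average over unlike probes. Ctnnbl1, a nuclear protein related to the catenins by name and sequence, had an F of 0.752. The 4 catenins without a call thus had F values from 0.752 to 1.49.

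Among the cadherins, Cdh2 had the largest F (1.78, adjusted p = 0.0564), just above the threshold. It was highest along the middle of row B. B7 had 0.73, 0.77 and 0.63 in datasets 1 to 3 (0.71 ± 0.07), B6 had 0.61, 0.24 and 0.86 (0.57 ± 0.32), and B5 had 0.30 and 1.37 in datasets 2 and 3 (0.83 ± 0.76, n = 2). A9 reached 1.10, 0.38 and 0.47 (0.65 ± 0.39). B7 varied least of these between datasets. The lowest mean was -0.31 ± 0.35 at F10 (n = 2). In rows A-B 16 of 18 positions had a mean above 0, against 5 of 17 in rows F-G, with overlap between -0.03 and 0.12. With array weights, which gave 2532 calls over all genes, the adjusted p by the moderated F test was 0.0036. In 12 of 13 alternative settings Cdh2 stayed without a call, with an adjusted p of up to 0.927. Tested singly, its probes 1, 2 and 3 had adjusted p of 0.588, 0.741 and 0.353 by the same test. They were highest at A9, B7 and B6.

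The other 6 cadherins had F values from 0.867 (Cdh22) to 1.48 (Cdh18, a type II cadherin, adjusted p = 0.291). Cdh18 ranged from -1.04 ± 1.64 at C5 to 1.10 ± 1.79 at E6, with SDs above the means. Cdh5, the cadherin of blood vessel lining, had an F of 0.949, and Cdh1, the cadherin of epithelia, 0.997. Cdh13, which is anchored to the membrane without an inner tail, also had 0.997. Over the 68 positions the mean of the 9 vascular and meningeal markers correlated at 0.04 with Cdh5, a description over positions that share arrays and datasets. The 2 probes of Cdh5 themselves correlated at -0.33 over arrays.

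Cdh4, R-cadherin, differed between its probes. Its mean over 2 probes had an F of 1.32 (adjusted p = 0.511). Tested on its own, probe 2 had an F of 2.59 (adjusted p = 1.6e-04) and probe 1 an F of 0.654. Probe 2 was highest at B8, with 3.33, 0.99 and 0.45 in datasets 1 to 3 (1.59 ± 1.53), and at B10, with 3.30, 0.59 and 0.56 (1.48 ± 1.57). All 3 arrays were above 0 at both positions, with dataset 1 far above the others. D11 was steadier, with 1.61, 0.56 and 1.33 (1.17 ± 0.54). Low values lay at E8, with -1.13, -0.93 and -4.95 (-2.34 ± 2.27), and at F5, with -0.73, -0.90 and -0.92 (-0.85 ± 0.11). By grid row the probe averaged 0.90 ± 0.77 in row B and -0.40 ± 0.25 in row F. Its adjusted p was 4.3e-04 without the E8 array of dataset 3 and 9.1e-05 without the row D arrays of dataset 2. It was 0.116, 0.111 and 0.103 without dataset 1, 2 or 3.

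Of the protocadherins, Pcdh17, a non-clustered protocadherin of the δ2 group that takes part in axon and synapse organisation, passed with an F of 1.94 (adjusted p = 0.0197 by the moderated F test). Without the row D arrays of dataset 2 the F was 1.85 (adjusted p = 0.0406). Its means were higher near the middle columns of rows A to C and lower at most outer positions of rows E to G, although E10 had a mean of 0.31. Over 189 arrays its values ran from -1.97 through a median of 0.01 to 2.74. B6 was high in every dataset, with 0.84, 1.21 and 0.95 (1.00 ± 0.19), and so was B7, with 1.25, 1.01 and 0.45 (0.90 ± 0.41). The highest mean, 1.20 ± 1.55 at G6, came from 2.74, 1.23 and -0.36, the last from an array short of values. Without the 4 row G arrays of dataset 3 with the most missing values the F of Pcdh17 was 2.69 (adjusted p = 8.7e-05) and that of Ctnnb1 1.88 (adjusted p = 0.0305). G9 was lowest, with -0.55, -0.71 and -1.22 (-0.82 ± 0.35). At E11 the value was -1.97 in dataset 1 but -0.15 and -0.10 in the others (-0.74 ± 1.07), and at B11 it was -1.70, -0.33 and -0.23 (-0.75 ± 0.83), so the low right edge came mainly from dataset 1. By column, the mean was 0.45 ± 0.42 in column 6 and -0.44 ± 0.65 in column 11, with or without the row D arrays.

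Pcdh17 kept its call when any single array was left out (largest adjusted p = 0.0387, without G6 of dataset 2), and so did Ctnnb1 (largest 0.0167, without G3 of dataset 3). With floor values kept its adjusted p was 0.513, and its probe has 1 floor value, at E7 of dataset 1. Maps of Pcdh17 correlated at 0.40 between datasets 1 and 2, 0.28 between 1 and 3 and 0.09 between 2 and 3, and without the row D positions at 0.40, 0.29 and 0.10. The most similar non-member genes were Fgfr1 (a fibroblast growth factor receptor, r = 0.64), Ppm1f (a protein phosphatase, r = 0.64) and Fam50a (r = 0.62). These became 0.64, 0.64 and 0.59 without the row D arrays. Fgfr1 passed the F test (adjusted p = 2.6e-05), and the adjusted p of Ppm1f and of Fam50a was 0.612 and 0.566.

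Pcdh7, a δ1 protocadherin, had 4 probes, an averaged F of 1.68 and an adjusted p of 0.101. Its means were lowest in the middle of rows D and E. D7 had -0.43, -0.68 and -0.40 (-0.50 ± 0.15), E5 had -0.39, -0.78 and -0.31 (-0.49 ± 0.25), and D6 had -0.87, -0.02 and -0.87 (-0.59 ± 0.49). Over datasets 1 and 3 the means of D7 and D6 were -0.42 ± 0.02 and -0.87 ± 0.01 (n = 2), and the F of the gene without the row D arrays was 1.74 (adjusted p = 0.0773). F2 was above 0 in every dataset, with 0.49, 0.37 and 0.29 (0.38 ± 0.10), as were E1 and C1 (0.67 ± 0.65 and 0.92 ± 0.97). With each probe tested on its own, probe 2 passed (F = 1.87, adjusted p = 0.0307), and the other 3 had F values of 0.848, 0.9 and 1.30. Probe 2 was steadily high in row F and at E2. E2 had 1.09, 0.84 and 0.88 (0.94 ± 0.13), F2 had 0.90, 0.89 and 0.72 (0.84 ± 0.10), F3 had 0.63, 0.92 and 0.79 (0.78 ± 0.15), and F10 had 0.94 and 0.85 (0.90 ± 0.06, n = 2). Its lowest position was E5, with -0.85, -2.85 and -1.003 (-1.57 ± 1.12). Row F averaged 0.52 ± 0.14 and row B -0.42 ± 0.41. The adjusted p of probe 2 was 0.0348 without the row D arrays of dataset 2, 0.0679 without the E5 array of that dataset, 0.377 with floor values kept and 0.305 without the dataset block. Without dataset 1, 2 or 3 it was 0.479, 0.902 and 0.0177.

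**Figure D3:**
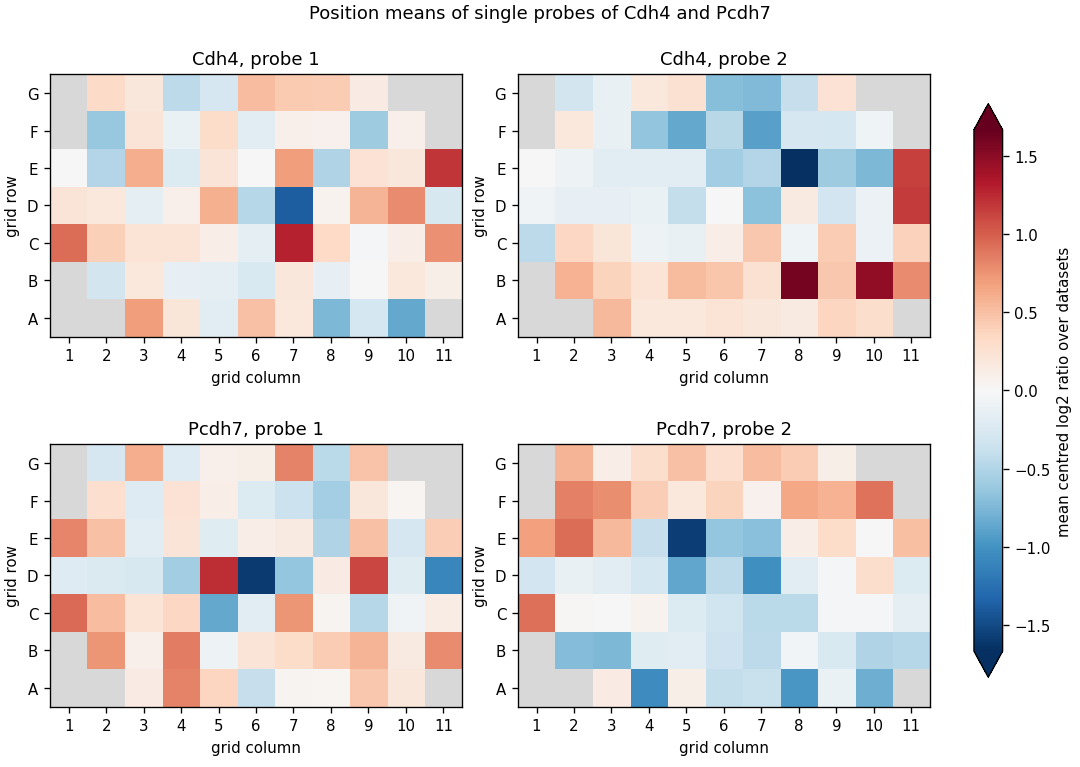
Mean centred log2 ratio over the datasets at each grid position (columns on the x axis, rows on the y axis) for probes 1 and 2 of Cdh4 and of Pcdh7; red is above 0, blue below 0 and grey not measured. The 2 probes of Cdh4 form unlike maps, with probe 2 red in row B and at D11 and blue at E8, while probe 2 of Pcdh7 is red across row F and blue at E5.

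Tested singly, 4 of the 34 probes passed (Cdh4 probe 2, Ctnnb1, Pcdh17 and Pcdh7 probe 2), beside 4.81% of all 19683 probes, and probes of the same 4 genes passed without the row D arrays. In the 8 genes with several probes, the correlation of 2 probes of a gene over arrays lay between -0.33 (Cdh5) and 0.19 (Pcdh7), so the gene means of Cdh1, Cdh2, Cdh4, Cdh5, Ctnna1, Ctnnal1, Ctnnd1 and Pcdh7 combine probes that did not follow each other. Which transcript each probe reads was not examined.

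**Figure D4:**
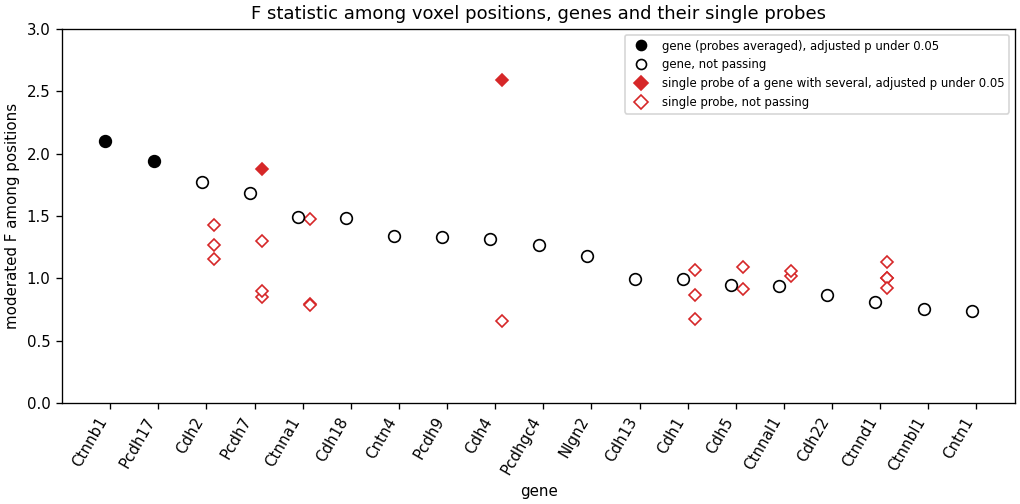
Moderated F among positions (y axis) for the 19 adhesion genes (x axis, in falling order); circles are gene values with probes averaged, diamonds are single probes of genes that have several, and filled symbols have an adjusted p under 0.05. The Cdh4 diamond at 2.59 lies far above the gene's own circle at 1.32, and the circles of Ctnnb1 and Pcdh17 are the filled ones.

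Pcdh9, the other δ1 protocadherin, had an F of 1.33 and Pcdhgc4, a member of the clustered γ-protocadherins, an F of 1.27 (adjusted p = 0.578). Pcdhgc4 ranged from -1.33 ± 1.98 at F6 to 1.26 ± 1.39 at D6 (1.73 ± 1.59 over datasets 1 and 3). The genes of that cluster share their last exons, so its probe may also read other members, which makes the symbol uncertain. Cntn4, a contactin of axons, had an F of 1.34 (adjusted p = 0.48) with a highest mean of 0.76 ± 0.72 at D5 (1.08 ± 0.66 over datasets 1 and 3), and Cntn1 an F of 0.736, the lowest of the family. Nlgn2, the neuroligin of inhibitory synapses, had an F of 1.17 (adjusted p = 0.707) and position means between -0.61 and 0.44.

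Zones of the grid were then compared within each dataset, with the dataset as the replicate (n = 3) and limma's moderated test, two-sided, adjusted over all genes. No adhesion gene passed in any of the 5 comparisons. In rows A-B against rows F-G 0.109% of all genes passed, in the lateral core (rows C to E of columns 3, 4, 8 and 9) against rows F-G 0.583%, and in the other 3 comparisons 0%. At an unadjusted p under 0.05, 4 of 19 adhesion genes were below it in rows A-B against rows F-G (9.03% of all genes), 4 in columns 5-7 against columns 1-3 and 9-11 (13.2%), 0 between the sides (3.34%), 3 in the lateral core (10.1%) and 4 in the central block of rows C and D, columns 5 to 7, against rows F-G (5.28%). The differences below are values that did not pass. The comparisons of rows A-B, the lateral core and the central block share the arrays of rows F-G. Datasets 1 to 3 held 11, 18 and 18 positions of rows A-B and 17, 17 and 14 of rows F-G. Differences of the 3 datasets in these comparisons therefore rest on partly unlike sets of positions.

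In rows A-B against rows F-G, 9 of 19 adhesion genes had 1 sign in all 3 datasets, 4 of them higher (13.4% of all genes) and 5 lower (19%), beside 32.5% of all genes for either sign. Cdh4 had differences of 0.95, 0.34 and 0.39 in datasets 1 to 3 (0.56 ± 0.34). Its probes differed, with 1.29, 0.95 and 0.44 for probe 2 (0.89 ± 0.43, adjusted p = 0.244) but 0.15, -0.33 and 0.25 for probe 1 (0.03 ± 0.31). Pcdh17 was higher in rows A-B by 0.49, 0.41 and 0.53 (0.48 ± 0.06) and Ctnnb1 by 0.44, 0.25 and 0.53 (0.40 ± 0.14). Pcdh17 varied least of these and had an adjusted p of 0.303. Cdh2 was higher by 0.31, 0.47 and 0.27 (0.35 ± 0.11), and each of its 3 probes was higher in 3 of 3 datasets. Pcdh9 differed by -0.33 ± 0.31, Ctnna1 by -0.16 ± 0.18 and Pcdh7 by -0.15 ± 0.15. The means of the 3 Ctnna1 probes were -0.13, -0.16 and -0.17. Of the Pcdh7 probes, probe 2 differed by -0.64, -0.55 and -1.13 (-0.78 ± 0.31, adjusted p = 0.239), while probes 1, 3 and 4 had means of 0.19, 0.03 and -0.07, so the sign of the gene mean came from probe 2. The median difference over the 19 genes was 0.00, and over all genes -0.02.

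Several other measures moved with these 2 zones. The cortex marker mean differed by -1.06 ± 0.34 (0 of 4 genes higher in rows A-B), the hypothalamus mean by 0.76 ± 0.02 (3 of 3 higher) and the striatal mean by 0.46 ± 0.16 (4 of 4). The typical spread of an array's values was 0.48 ± 0.07 in rows A-B and 0.38 ± 0.04 in rows F-G, and missing or floor values made up 2.03% and 1.09%. Their part in the values above was not tested. Over the 68 positions, 19 of 190 correlations of a marker list's mean with an adhesion gene exceeded 0.4 in size. The share among all genes was not computed, so this count is no result about the family. Ctnnb1 had -0.63 with the cortex list, 0.46 with the myelin list, 0.46 with the astrocyte list and 0.43 with the thalamus list. Pcdh17 had -0.53 with cortex, 0.43 with hypothalamus and 0.41 with astrocytes, and Cdh2 had 0.54 with hypothalamus and -0.48 with cortex. Pcdh7 had -0.46 with myelin, -0.41 with thalamus, 0.41 with cortex and -0.40 with the choroid plexus list. Pcdh9 had 0.56 with myelin, Ctnna1 0.53 with thalamus and 0.42 with choroid plexus. Nlgn2 had -0.49 with choroid plexus and 0.43 with hypothalamus, and Pcdhgc4 0.42 with the vascular and meningeal list. Without the row D arrays of dataset 2, Pcdh7 with thalamus (-0.397) and Nlgn2 with hypothalamus (0.396) fell below 0.4 in size. Nlgn2 with thalamus (-0.47) and Cdh4 with choroid plexus (-0.43) then exceeded it, and Ctnnb1 with thalamus had 0.53. Several adhesion genes thus had correlations above 0.4 in size with more than 1 list. The correlations describe positions that share arrays and datasets.

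In columns 5-7 against the outer columns, 10 of 19 adhesion genes kept 1 sign, 7 of them higher (18.2% of all genes) and 3 lower (20%), beside 38.1% for either sign. Pcdh17 was higher in the middle by 0.86, 0.12 and 0.33 (0.43 ± 0.38), Ctnnb1 by 0.32, 0.10 and 0.27 (0.23 ± 0.12) and Pcdh9 by 0.19 ± 0.16. Cdh4 was lower in the middle columns in every dataset, at -0.24, -0.10 and -0.49 (-0.28 ± 0.20), as was its probe 2 (-0.35 ± 0.14), while probe 1 was higher in 1 of 3 (-0.11 ± 0.26). Pcdh7 had -0.29, -0.24 and -0.15 (-0.23 ± 0.07) and Cdh22, a type II cadherin, -0.10 ± 0.04. In the same comparison the striatal marker mean differed by -0.82 ± 0.22, the cortex mean by -0.44 ± 0.23 and the myelin mean by 0.39 ± 0.14, and their part was not tested. Without the dataset 2 arrays of row D, Pcdh17 had 0.44 ± 0.37, Ctnnb1 0.29 ± 0.03 (adjusted p = 0.178), Pcdh9 0.19 ± 0.16, Cdh4 -0.28 ± 0.20, Pcdh7 -0.23 ± 0.08 and Cdh22 -0.10 ± 0.03. With those arrays left out 46 genes of the table passed in this comparison, none of the 19 among them.

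Between the sides, columns 1 to 5 against their mirror positions in columns 7 to 11, the adhesion genes differed by less than in any other comparison, with a median absolute difference of 0.05 (0.05 over all genes). With 1 sign in 3 of 3 datasets were 5 genes, 2 higher (13.2% of all genes) and 3 lower (10.8%), beside 24% for either sign. Cdh18 was higher in columns 1-5 by 0.07 ± 0.03 and Ctnnb1 by 0.07 ± 0.07. Cdh1 differed by -0.12 ± 0.08, Ctnnd1 by -0.07 ± 0.08 and Cntn4 by -0.04 ± 0.02. Probes 1, 2 and 3 of Cdh1 had means of 0.03, -0.26 and -0.14, and the 4 probes of Ctnnd1 lay between -0.11 and -0.0041. Without the row D arrays of dataset 2, Ctnnb1 was higher in 2 of 3 datasets (0.03 ± 0.14), and Cdh18, Cdh1, Ctnnd1 and Cntn4 had 0.06, -0.13, -0.07 and -0.06.

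In the lateral core against rows F-G, where the striatal marker mean differed by 1.78 ± 0.46 and the myelin mean by 0.83 ± 0.14, Ctnnb1 was higher by 0.64, 0.46 and 0.34 (0.48 ± 0.15). Its adjusted p, 0.188, was the smallest of any adhesion gene in a zone comparison with all arrays. Pcdh17 was higher by 0.34, 0.18 and 0.58 (0.36 ± 0.20) and Ctnna1 by 0.11 ± 0.05. Probe 3 of Ctnna1 was higher in every dataset (0.34 ± 0.19), but probes 1 and 2 in 1 of 3 each (0.06 ± 0.20 and -0.06 ± 0.12). Ctnnal1 had -0.24, -0.18 and -0.49 (-0.30 ± 0.16), Pcdh7 had -0.17, -0.29 and -0.19 (-0.21 ± 0.06) and Cdh18 had -0.17 ± 0.05. Of Ctnnal1, probe 1 had -0.42 ± 0.26 and probe 2 -0.03 ± 0.25, and of Pcdh7, probes 1 to 4 had means of 0.01, -0.47, -0.18 and -0.22. Without the row D arrays of dataset 2, Ctnnb1 had 0.46 ± 0.15 (adjusted p = 0.209), Pcdh17 0.36 ± 0.20, Ctnna1 0.10 ± 0.05, Ctnnal1 -0.31 ± 0.15, Pcdh7 -0.21 ± 0.06 and Cdh18 -0.18 ± 0.06. In all, 9 of 19 genes kept 1 sign, 4 higher (14.9% of all genes) and 5 lower (17.3%), beside 32.3% for either sign. The part of the markers in these differences was not tested.

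In the central block against rows F-G, where the thalamic marker mean differed by 1.18 ± 0.53 (5 of 5 genes higher), Ctnnb1 was higher by 0.96, 0.17 and 0.94 (0.69 ± 0.45), Pcdhgc4 by 1.07, 0.14 and 0.42 (0.54 ± 0.48) and Pcdh17 by 0.22, 0.14 and 0.95 (0.44 ± 0.45). Dataset 2, which holds the row D arrays in doubt, gave the smallest value of each. Without those arrays its values were 0.63, 0.07 and 0.12, and the means 0.84 ± 0.19 for Ctnnb1 (adjusted p = 0.246), 0.52 ± 0.51 for Pcdhgc4 and 0.43 ± 0.45 for Pcdh17. The thalamic marker mean then differed by 1.36 ± 0.27. Pcdh7 had -0.38, -0.45 and -0.41 (-0.41 ± 0.03), Cdh18 -0.38 ± 0.24 and Cdh5 -0.35 ± 0.28. Probe 2 of Pcdh7 had -0.67, -0.79 and -1.41 (-0.96 ± 0.40, adjusted p = 0.571), and its probes 1, 3 and 4 had -0.33, -0.17 and -0.20. Probe 2 of Cdh5 was lower in every dataset (-0.43 ± 0.26), but probe 1 in 1 of 3 (-0.12 ± 0.60). With the row D arrays left out Pcdh7 had -0.39 ± 0.01, Cdh18 -0.47 ± 0.14, Cdh5 -0.36 ± 0.27 and probe 2 of Pcdh7 -0.95 ± 0.40. In this comparison 11 of 19 kept 1 sign, 7 higher (14% of all genes) and 4 lower (10.6%), beside 24.6% for either sign.

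**Figure D5:**
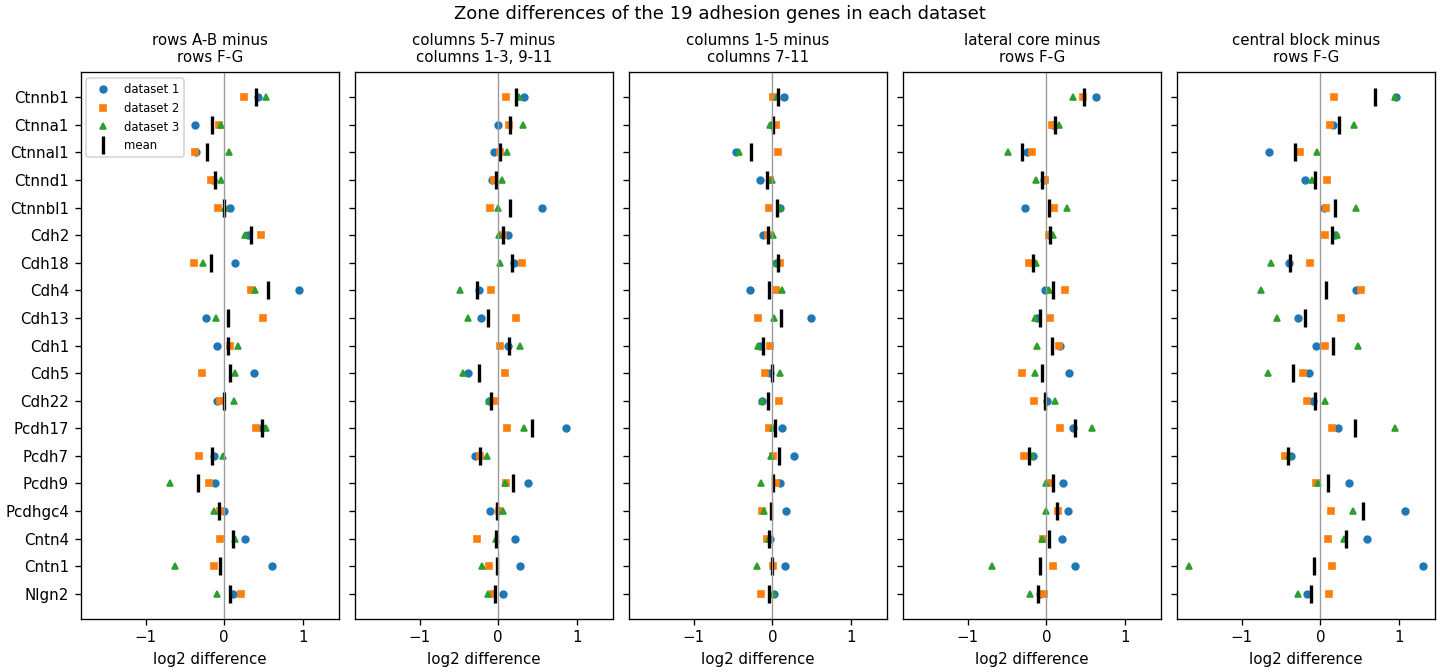
Log2 difference between zones (x axis) for each of the 19 adhesion genes (y axis, grouped as catenins, cadherins, protocadherins, contactins and Nlgn2) in 5 comparisons; coloured symbols are the 3 datasets and the black bar is their mean. Ctnnb1 and Pcdh17 lie right of 0 in every dataset in all panels against rows F-G, Pcdh7 lies left of 0 there, and none of the differences passed the test.

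The adhesion genes did not share 1 map. Over 171 pairs the correlation of position means had a median of 0.01 and ran from -0.53 (Ctnna1 with Nlgn2) to 0.43 (Cdh2 with Pcdh17), and 87 pairs were above 0. Ctnnb1 and Pcdh7, partly mirror images on the maps, had -0.51. The range was -0.55 to 0.42, and Ctnnb1 with Pcdh7 had -0.53, without the row D arrays. Between datasets the maps of single adhesion genes correlated at medians of 0.072, 0.095 and 0.093, beside 0.055, 0.028 and 0.0037 over all genes.

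Of 61 measured genes from a wider list of adhesion molecules and cadherin partners, 14 passed the F test, beside 4.92% of all genes. An unadjusted p under 0.05 was found for 20, beside 13.3% of all genes. The median F of the 61 was 1.19. Clstn1, a calsyntenin with cadherin repeats, had the largest F (3.78, adjusted p = 1.2e-08) and ran from -0.90 ± 0.08 at C7 to 0.69 ± 0.11 at F4. It was also the list's 1 zone call, lower in the lateral core than in rows F-G (-0.84 ± 0.26, adjusted p = 0.0464, and 0.0497 without the row D arrays of dataset 2). With those arrays left out 15 of the 61 passed the F test, with Lrrtm1 added, beside 743 of 15601 genes. Emb was then higher in columns 5-7 than in the outer columns (0.67 ± 0.06, adjusted p = 0.0306 by limma's moderated test). Pkp4, a plakophilin relative of p120-catenin, was highest at D4 (0.64 ± 0.34, F = 3.44, adjusted p = 1.7e-07). Flrt2, a leucine-rich repeat ligand of latrophilins, was highest at F9 (0.77 ± 0.49, F = 3.24, adjusted p = 8.2e-07).

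The highest positions of the others that passed lay in different parts of the grid. In rows F-G were those of Nptn (neuroplastin, F9), Adgrl1 (a latrophilin, F9), Slitrk1 (G8) and Lin7b (G3), with position means of 0.57, 0.50, 0.74 and 0.71. In rows A-B were those of Nectin1 (A8, 0.60), Alcam (B9, 0.87), Emb (embigin, B7, 1.20) and Ptprf (a receptor phosphatase, B5, 0.79). In rows C-E were those of Dlg3 (C1, 0.69), Nectin3 (E11, 0.71) and Dlg1 (D3, 0.54). The adjusted p of these 11 by the moderated F test lay between 7.1e-04 (Nectin1) and 0.0152 (Adgrl1). Over the arrays without those of row D in dataset 2, Alcam was highest at D3 (0.92) and Emb at D5 (1.34), in rows C-E.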

How the data were processed

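Two-colour array data of 192 voxel samples were used as a table of log2 ratios that the authors deposited, with rows centred on their median (99.9% within 0.001 of 0). For the array software and the authors' normalization, the name is not given in the sources used here. Floor values (a ratio of 0.01; 0.483% of values) were set to missing, arrays were centred on their median (largest shift 0.353), and 20 control rows were left out. Probes measured on at least 80% of arrays of each dataset were kept and those sharing a symbol averaged. All 35 probes of the family were named by the platform annotation. Positions were tested with a moderated F test and zones with limma on differences within datasets (R 4.3.3, limma 3.58.1), Benjamini-Hochberg over all 15608 genes, threshold 0.05. Both tests were also run on simulated data whose noise was independent between arrays apart from a shift per dataset. The real arrays are correlated, so that run does not give error rates for these data. The dataset was a block because each number names 1 independent harvest. Deviations from position means correlated at a median of 0.236 within datasets (7555 genes). The median between datasets, -0.123, adds no separate evidence, because the deviations of a position sum to 0. The F test sets positions against the spread of arrays left after position and dataset are taken out. The zone tests use the spread of zone differences between datasets. How many arrays there are sets the precision.

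The genes, lists, zones and tests were chosen with earlier results of these data known. Named with values are genes that passed, the member of each subfamily with the smallest F test p, the 3 highest and 3 lowest of each zone comparison with 1 sign in all datasets, the 3 genes most like each F test call, and members of the wider adhesion list that passed. Other members and single positions named were picked after their values were seen, and the wider list and marker lists hold genes known to be regional. Alternatives were another treatment of floor values, centring, quantile normalization, the share of arrays, limits on values, array weights, no block, zone medians, single probes and left-out datasets or arrays.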

Additional observations from a re-analysis of the deposited data

How the results depend on the processing

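Of the adhesion genes, the F test called 1 with floor values kept (Cdh18), 0 of the 5 measured on every array, 4 probes tested singly, 1 with no replicate block (Pcdh17), 6 with array weights (Cdh2, Ctnna1, Ctnnb1, Pcdh17, Pcdh7 and Pcdh9) and 0 to 0 without 1 dataset. Of all genes it called 1161 after quantile normalization, 366 with no replicate block, 2532 with array weights and between 209 and 548 without 1 dataset. Counts over all genes with floor values kept, and for genes measured on every array, are not given here. The adhesion counts under those settings are therefore no result about the family. An adhesion count after quantile normalization is not given either. The zone comparisons called 0 adhesion genes under every alternative run, but their counts over all genes varied widely. Rows A-B against rows F-G had 17 calls, with floor values kept 1, quantile normalization 0, probes on every array 154, on at least 50% of arrays 5, values limited to 3 either side of 0 26, positions in all 3 datasets 32, no replicate block 10, and without 1 dataset 0 to 2. Columns 5-7 had 0 calls, with quantile normalization 60, probes on every array 201, limited values 8, positions in all 3 datasets 5, without the row D arrays of dataset 2 46, zone medians 49, and without 1 dataset 0 to 30. The lateral core had 91 calls, with floor values kept 0, quantile normalization 153, probes on every array 291, on at least 50% of arrays 54, no replicate block 6, zone medians 139, and without 1 dataset 0 to 123. The central block had 0 calls, with quantile normalization 40, probes on every array 68, without those row D arrays 8, and without 1 dataset 0 to 11. Between the sides, Cdh1 turned to 0.032 with probes on every array and Cntn4 to 0.0078 with zone medians. The dataset block changed no other call of an adhesion gene than that of Ctnnb1, among genes with probes averaged. Leaving out the 4 row G arrays, single arrays, or datasets for single probes was chosen after seeing the data. The cause of these changes was not tested.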
